A study of Homo sapiens with 6 samples.

Results

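The genes described here are 8 metallothionein genes (MT2A, MT1A, MT1E, MT1F, MT1G, MT1H, MT1M and MT1X), the zinc-sensing transcription factor gene MTF1 and the zinc exporter gene SLC30A1, chosen by name as the zinc response. All 10 were among the 67140 gene identifiers of the count table. RNA-seq was performed on KYSE150, an established esophageal squamous cell carcinoma line, in 3 samples of a stable line carrying a control hairpin (shCtrl) and 3 samples of a stable line carrying a hairpin against the long non-coding RNA AC007128.1 (shAC007128.1). Both lines were grown in the same medium with fetal bovine serum, and the labels name no added metal for either group. A single hairpin and a single control were used, so an effect of the hairpin sequence and of the loss of its target cannot be told apart, and no source states that the samples of a group came from separate cultures, so the p-values measure only the spread between these samples.

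Metallothioneins are small, cysteine-rich proteins that bind zinc and copper, buffer the free metal in the cell and take up reactive oxygen species. MTF1 binds zinc and then occupies metal response elements (MREs) in the promoters of metallothionein genes and of SLC30A1, which encodes the plasma membrane exporter ZnT1, so that these genes are the classical readout of a rise in free zinc. MT2A and several MT1 genes are also induced by oxidative stress and glucocorticoids, and MT2A is usually the most abundant form in human epithelial cells.

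The 8 metallothionein genes lay together on chromosome 16 (GRCh38, GENCODE release 44), within chr16:56608584-56684196, a span of 75.6 kb. MT1G alone was on the minus strand. MTF1 (chr1:37809574-37859592) and SLC30A1 (chr1:211571568-211579161) were on the minus strand of chromosome 1. The coding sequences of 7 metallothionein genes had 61 codons, that of MT1G had 62, and each held 20 cysteine codons, which is 32.8% of the codons, or 32.3% in MT1G. For each gene the isoform with the most cysteine codons was taken, which for MT1E was not the canonical one. Coding identity between members ran from 88.5% (MT1F and MT1X) to 94.5% (MT1A and MT1E), and MT2A shared 92.3% with MT1E, 92.9% with MT1X and 91.3% with MT1F.

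Promoter windows, the 250 bases before the start of the gene, were found in RefSeq (GRCh38.p14) for 5 of the 10 members, MT2A, MT1X, MT1H, SLC30A1 and MTF1, and were not found for MT1A, MT1E, MT1F, MT1G and MT1M. The windows of MT2A and MT1X are shown because their genes moved in opposite directions, that of MT1H because the gene had no counts, and that of SLC30A1 as the exporter of the same response. All 4 are written 5′ to 3′ on the strand of the gene, with capitals for each match to the MRE core TGCACNC or TGCGCNC on either strand.
MT2A: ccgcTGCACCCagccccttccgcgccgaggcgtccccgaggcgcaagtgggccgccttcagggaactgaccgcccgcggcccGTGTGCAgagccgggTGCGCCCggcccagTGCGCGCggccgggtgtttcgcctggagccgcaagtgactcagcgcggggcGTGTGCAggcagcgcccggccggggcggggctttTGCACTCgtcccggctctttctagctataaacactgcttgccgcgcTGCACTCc
MT1X: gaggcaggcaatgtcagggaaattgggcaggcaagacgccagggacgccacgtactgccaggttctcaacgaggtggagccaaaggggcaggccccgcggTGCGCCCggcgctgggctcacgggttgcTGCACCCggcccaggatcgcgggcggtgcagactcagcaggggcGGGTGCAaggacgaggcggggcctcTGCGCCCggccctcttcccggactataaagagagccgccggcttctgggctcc
MT1H: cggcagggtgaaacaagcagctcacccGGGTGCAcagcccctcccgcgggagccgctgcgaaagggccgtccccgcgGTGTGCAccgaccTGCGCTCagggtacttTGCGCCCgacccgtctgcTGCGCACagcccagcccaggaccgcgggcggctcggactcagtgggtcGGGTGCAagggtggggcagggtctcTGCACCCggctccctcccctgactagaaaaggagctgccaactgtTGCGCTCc
SLC30A1: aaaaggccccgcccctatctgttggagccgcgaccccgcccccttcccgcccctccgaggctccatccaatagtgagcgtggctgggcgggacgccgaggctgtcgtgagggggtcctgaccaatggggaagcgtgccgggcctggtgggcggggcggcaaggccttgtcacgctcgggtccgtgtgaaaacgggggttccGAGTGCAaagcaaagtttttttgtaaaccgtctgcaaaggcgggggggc
The MT2A window (chr16:56608334-56608583, plus strand) held 7 matches, 5 on the strand of the gene and 2 on the other. The MT1X window (chr16:56682220-56682469, plus strand) held 4, and the MT1H window (chr16:56669564-56669813, plus strand) held 8. That of SLC30A1 (chr1:211579162-211579411, minus strand) held 1, and that of MTF1 held 0. Of 35116 RefSeq windows of the same length, 24.8% had at least 1 match, 0.37% at least the 4 of MT1X, 0.0313% at least the 7 of MT2A and 0.0171% at least the 8 of MT1H.

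Other motifs differed between the windows. The AP-1 motif TGACTCA, searched on both strands and present in 4.2% of windows, occurred 1 time in MT2A and in no other member's window, where it overlapped a match to the antioxidant response element core TGACNNNGC (10.9% of windows). MT1X and SLC30A1 also held 1 match each to TGACNNNGC. TATAAA, the TATA box, present in 10.7% of windows, occurred 1 time in MT2A and 1 time in MT1X and not in MT1H. These matches describe the letters of the windows only, and the study measured no binding at them.

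Total counts per sample ran from 55764405 to 78610457, and all 3 shCtrl samples (65140326 or more) were deeper than all 3 shAC007128.1 samples (60158244 or fewer). Levels are given as CPM (each library's counts scaled to a common total, with edgeR's trimmed mean of M values, TMM, factors), and differences as log2 fold changes, shAC007128.1 minus shCtrl, with their standard error (SE), from edgeR's quasi-likelihood test over 19254 genes with Benjamini-Hochberg adjustment. Of the targeted AC007128.1, counts were 69, 33 and 53 in shCtrl and 18, 37 and 15 in shAC007128.1, so the groups overlapped (0.711 ± 0.273 CPM against 0.417 ± 0.224, SD, n = 3), with a log2 fold change of -0.77 (SE 0.51, edgeR adjusted p = 0.271). It was -1.29 without shAC007128.1 replicate 2 and -0.51 without shCtrl replicate 1. The gene was identified as ENSG00000229970 by a match of the hairpin sequence to its transcript. By qPCR, which is separate from these counts, the paper reports that its hairpin lowered AC007128.1. Summed squamous epithelial markers (KRT5, KRT14, KRT6A, KRT17, TP63 and DSG3, all detected) were at 1174–1192 CPM in shCtrl and 1724–2244 CPM in shAC007128.1, while the leukocyte markers PTPRC, CD3E and CD14 summed to at most 1.22 CPM, endothelial to at most 3.11 CPM and fibroblast to at most 23.9 CPM. The fibroblast sum was higher and the endothelial sum lower in all 3 shAC007128.1 samples than in any control. Single markers went both ways, with DSG3 (-1.09) and PDGFRB (-1.60) lower within sums that were higher. Whether the change in the marker levels played a part in the metallothionein values was not tested.

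The metallothionein pool was split. MT2A was higher in shAC007128.1, MT1X and MT1F were lower, MT1E differed little, and 4 MT1 genes had no counts in either group. MTF1 and SLC30A1 did not pass the test. Of the 10 members, 6 were tested, and none reached the fold limit of 2 with adjusted p of at most 0.05 in either direction, whereas 5.57% of the genes tested were called higher and 10.1% lower by that rule. Without the fold limit, 1 of the 6 tested members was higher (21.0% of the genes tested) and 2 were lower (19.8%), which with 6 genes is not set apart from that background. The groups did not overlap for 1 member that was higher (27.0% of the genes tested) and 3 that were lower (28.2%). DESeq2 and limma-voom passed MT2A, MT1X and MT1F as well, also with 0 at a fold of 2. The median log2 fold change of the tested members was -0.13, against -0.02 over all genes tested.

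**Figure D1:**
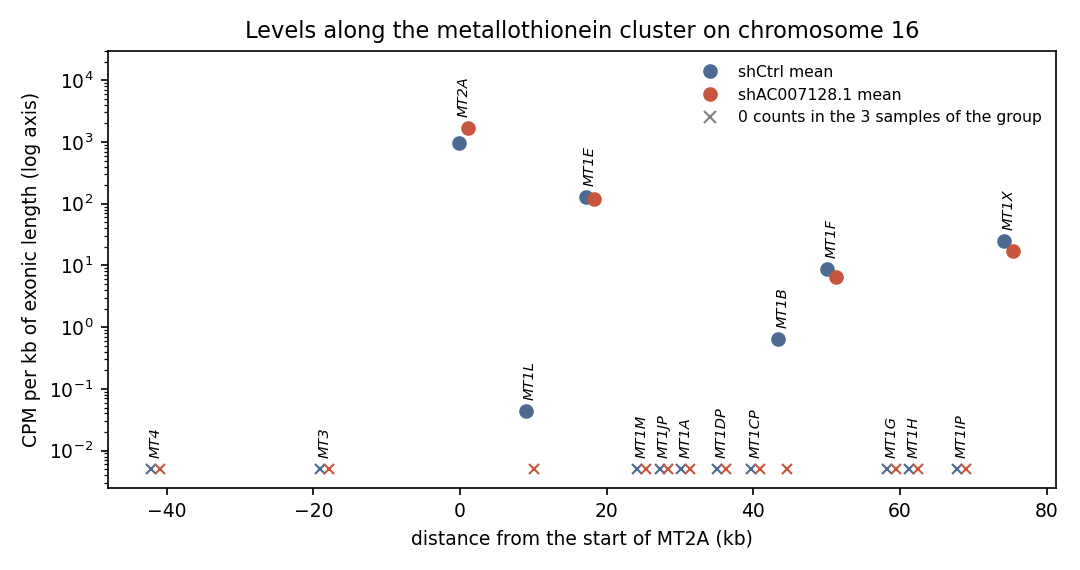
Mean level of each metallothionein locus in CPM per kb of exonic length (log axis) against its distance from the start of MT2A in kb, in shCtrl (blue) and shAC007128.1 (red), with crosses for 0 counts in all 3 samples of a group. MT2A stood highest at 970 and 1671 CPM per kb, the detected MT1 members lay below it, and MT1M, MT1A, MT1G and MT1H were at 0 between or beside them.

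MT2A (ENSG00000125148, chr16:56608584-56609497) encodes the main inducible metallothionein. Its counts were 66910, 71566 and 58139 in shCtrl and 84532, 79245 and 95285 in shAC007128.1, or 914, 889 and 856 CPM against 1503, 1442 and 1638 CPM. Every shAC007128.1 sample lay above every shCtrl sample, also in the counts before scaling, although those libraries were the shallower ones. The mean went from 886 ± 28.8 CPM to 1528 ± 101 CPM (SD, n = 3), 172% of the control level, with a log2 fold change of 0.79 (SE 0.06, 95% interval 0.63 to 0.94, edgeR adjusted p = 0.000137). Per kb of exonic length MT2A ranked 29 of 19156 genes by mean level in shCtrl and 16 in shAC007128.1.

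MT1X (ENSG00000187193, chr16:56682470-56684196), the MT1 gene farthest from MT2A in the cluster, went the other way. Its counts were 3288, 3556 and 2826 in shCtrl and 1595, 1608 and 1887 in shAC007128.1, or 44.9, 44.2 and 41.6 CPM against 28.4, 29.3 and 32.4 CPM. All 3 shAC007128.1 samples were below the lowest control. MT1X fell from 43.6 ± 1.72 CPM to 30.0 ± 2.15 CPM (SD, n = 3), 68.9% of control, with a log2 fold change of -0.54 (SE 0.09, 95% interval -0.75 to -0.33, edgeR adjusted p = 0.00298). A lncRNA gene with no symbol (ENSG00000259827) shares 321 exonic bases with MT1X on the same strand and was at 0 counts in all 6 samples.

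MT1F (ENSG00000198417, chr16:56657731-56660698) was the lowest of the detected members of the family. It had 1138, 1236 and 1204 counts in shCtrl and 705, 693 and 641 in shAC007128.1, or 15.5, 15.4 and 17.7 CPM against 12.5, 12.6 and 11.0 CPM. The groups did not overlap, but the nearest samples were close to each other. MT1F fell from 16.2 ± 1.32 CPM to 12.1 ± 0.896 CPM (SD, n = 3), with a log2 fold change of -0.43 (SE 0.12, 95% interval -0.71 to -0.15, edgeR adjusted p = 0.0255). This call was lost without shCtrl replicate 1, 2 or 3 (edgeR adjusted p = 0.0599, 0.0524 and 0.0955) and without shAC007128.1 replicate 2 (0.0512), with log2 fold changes of -0.46, -0.47, -0.36 and -0.46.

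MT1E (ENSG00000169715, chr16:56625475-56627112), the neighbour of MT2A among the members and the most abundant MT1 form, differed least within the family. Its counts were 9883, 11025 and 9199 in shCtrl and 7129, 6465 and 7294 in shAC007128.1, or 135, 137 and 136 CPM against 127, 118 and 125 CPM. The shCtrl samples were tightly grouped and all above the shAC007128.1 samples. The means were 136 ± 1.03 and 123 ± 4.92 CPM (SD, n = 3), and the log2 fold change of -0.14 (SE 0.07, 95% interval -0.29 to 0.01) did not pass (edgeR adjusted p = 0.132), but did with scaling by library size only (-0.21, adjusted p = 0.031). With a correction for gene length it was -0.02 (edgeR adjusted p = 0.869).

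MT1A, MT1G, MT1H and MT1M (ENSG00000205362, ENSG00000125144, ENSG00000205358 and ENSG00000205364) had 0 counts in all 6 samples. A count of 0 allows up to 3 counts per library, 0.0373 to 0.0546 CPM, for counting error only, so no difference was detectable for these 4 genes at this depth. Of the metallothionein windows shown above, that of MT1H (8 MRE matches) belonged to a gene without a count. That of MT2A (7) belonged to a gene that rose and that of MT1X (4) to a gene that fell. Whether the matches had a part in these levels was not tested.

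**Figure D2:**
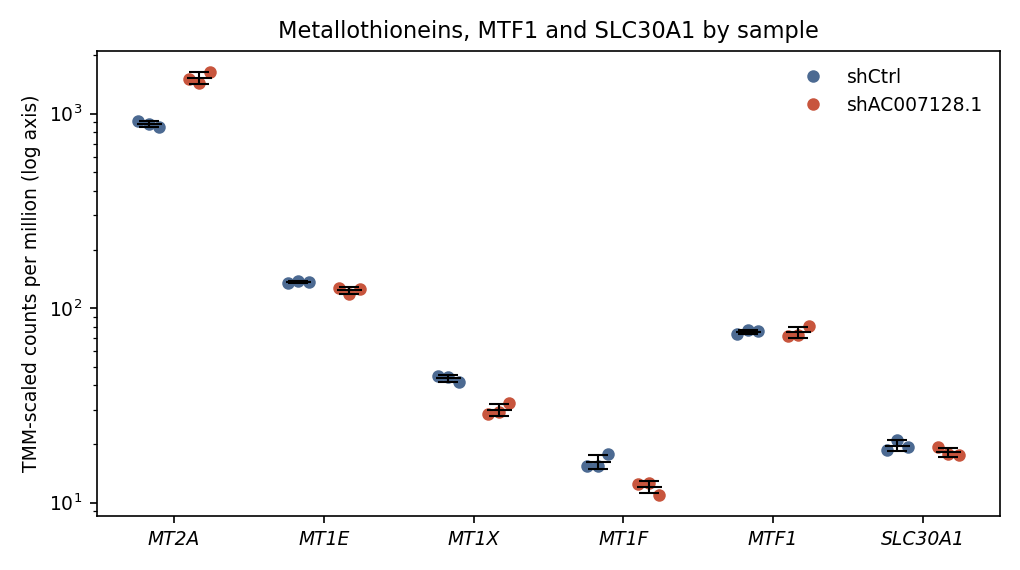
TMM-scaled CPM (log axis) of the 6 detected members in the 3 shCtrl (blue) and 3 shAC007128.1 (red) samples, each point a sample, with bars for mean and SD. Levels are not divided by length, so heights compare within a gene only, and MT2A is the gene whose red points (1442 to 1638) lie clearly above its blue points (856 to 914).

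MTF1 and SLC30A1, the sensor and the exporter of the response, were expressed in all samples. MTF1 (ENSG00000188786) had 5404, 6198 and 5172 counts in shCtrl and 4044, 3973 and 4685 in shAC007128.1, which is 75.7 ± 1.66 CPM against 74.9 ± 4.89 CPM (SD, n = 3). Scaled levels of the groups overlapped, and the log2 fold change of -0.01 (SE 0.08, edgeR adjusted p = 0.899) had a 95% interval of -0.20 to 0.17. SLC30A1 (ENSG00000170385) had 1362, 1690 and 1313 counts in shCtrl and 1087, 971 and 1023 in shAC007128.1, or 18.6, 21.0 and 19.3 CPM against 19.3, 17.7 and 17.6 CPM. These groups overlapped too. Its means were 19.6 ± 1.23 and 18.2 ± 0.981 CPM, with a log2 fold change of -0.11 (SE 0.10, 95% interval -0.35 to 0.13, edgeR adjusted p = 0.433). With a correction for GC content it was -0.30 (edgeR adjusted p = 0.0617).

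Summed over the 8 metallothionein members the level was 1109, 1086 and 1051 CPM in shCtrl and 1670, 1601 and 1807 CPM in shAC007128.1, a mean of 1082 ± 29.2 against 1693 ± 105 (SD, n = 3), 156% of control. Close paralogs can exchange reads, and an exchange within these 8 genes leaves the sum unchanged. Reads dropped for matching several genes, or counted at other loci, would alter the sum, and how they were handled is not given. The family took 0.110–0.112% of all counts in shCtrl and 0.158–0.175% in shAC007128.1. The MT1 members alone summed to 196 ± 0.835 CPM in shCtrl and 165 ± 5.09 CPM in shAC007128.1, 84.5% of control, so the higher total was carried by MT2A.

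The composition of the pool changed with it. Per kb of exonic length, MT2A made up 85.6 ± 0.392% of the metallothionein total in shCtrl and 92.2 ± 0.318% in shAC007128.1 (SD, n = 3). MT1E made up 11.4 ± 0.342% and 6.47 ± 0.295%, MT1X 2.23 ± 0.0303% and 0.959 ± 0.0366%, and MT1F 0.774 ± 0.0840% and 0.361 ± 0.0475% (SD, n = 3). No pair of samples from different groups exchanged places for any of the 4 genes. The shares of a sample add up to the whole, so a higher MT2A alone lowers the MT1 shares. These 4 are therefore not separate results.

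Ratios between members within a sample need no scaling across libraries. The count ratio of MT2A to MT1E was 6.77, 6.49 and 6.32 in shCtrl and 11.9, 12.3 and 13.1 in shAC007128.1, a difference of 0.92 on the log2 scale. That of MT2A to MT1X was 20.3, 20.1 and 20.6 against 53.0, 49.3 and 50.5, 1.32 on the log2 scale, and that of MT2A to MT1F 58.8, 57.9 and 48.3 against 120, 114 and 149, 1.21 on the log2 scale. The gap between MT2A and each detected MT1 gene was therefore wider in every shAC007128.1 sample than in any control. Among the MT1 genes, MT1E to MT1X went from 3.12 ± 0.126 to 4.12 ± 0.314 and MT1E to MT1F from 8.41 ± 0.681 to 10.3 ± 1.03, while MT1F to MT1X overlapped (0.373 ± 0.0457 and 0.404 ± 0.0562). Over the 6 pairs of genes, 5 had an exact two-sided permutation p of 0.1 (adjusted 0.12), the smallest that 3 samples against 3 allow, and MT1F to MT1X had 0.6 (adjusted 0.6).

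**Figure D3:**
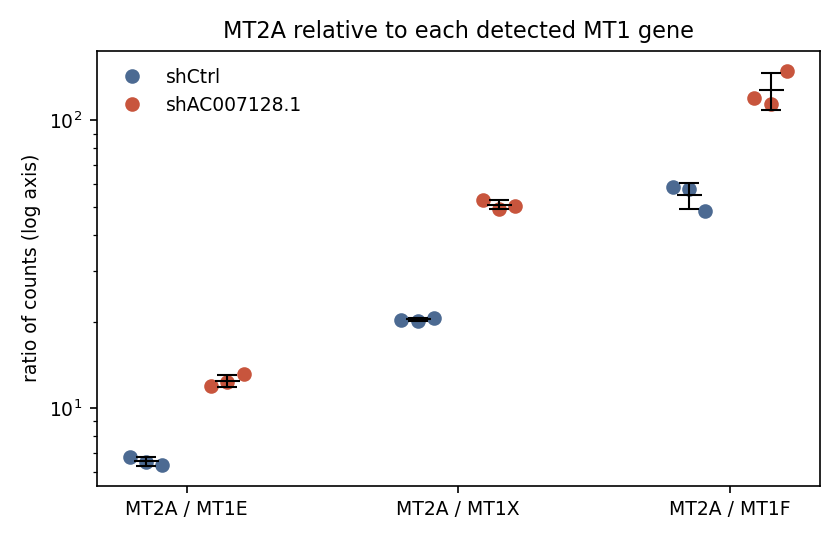
Count ratio (log axis) of MT2A to MT1E, MT1X and MT1F within each of the 3 shCtrl (blue) and 3 shAC007128.1 (red) samples, with bars for mean and SD. For all 3 ratios the red points lie above the blue ones, with the MT2A to MT1X ratio at 20.1 to 20.6 in shCtrl and 49.3 to 53.0 in shAC007128.1.

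Shared sequence sets a limit on these per-gene counts, since how reads mapping to several genes were counted and the read length are not given in the sources used here. No stretch of 75 bases of the canonical MT2A, MT1F, MT1A or MT1M transcript occurred in a transcript of another gene, whereas 1.6% of the stretches of MT1E, 6.5% of MT1G, 10.8% of MT1H and 36.1% of MT1X did. At 100 bases the share was 0% for MT2A, MT1E and MT1F and 22.0% for MT1X, all of it with the uncounted lncRNA gene that overlaps MT1X. At 50 bases it ranged from 5.8% in MT1A to 51.0% in MT1X, with 11.1% in MT2A. Only exact matches were counted, whereas the study's methods describe mapping that allowed mismatches, so reads can match paralogs beyond these shares. For MT1E the canonical transcript is not the isoform whose coding sequence was compared above.

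The rest of the metallothionein family was almost silent. Of 13 other metallothionein loci, pseudogenes included, 8 had 0 counts in all samples and only MT1B was tested. MT1B had 16, 19 and 21 counts in shCtrl and 0, 0 and 0 in shAC007128.1. With 3 counts set as a floor in each shAC007128.1 library (0.0532 CPM), its shCtrl mean of 0.255 CPM was 4.79-fold higher. This ratio takes no error on the shCtrl mean and allows only for counting error at 0 counts, so it is not a lower bound. MT1B entered the test only through its counts in shCtrl, so its call supports nothing about the other MT1 genes.

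Of the 10 ZnT genes, most of which move zinc out of the cytosol, 6 were tested, SLC30A1 included. In edgeR 0 passed the adjusted p of 0.05, with a median log2 fold change of 0.16. The count was also 0 at an unadjusted p under 0.05, and 0 in DESeq2 and in limma-voom. The largest changes were in SLC30A5 (0.25, SE 0.11, edgeR adjusted p = 0.115) and SLC30A6 (0.21, SE 0.11, edgeR adjusted p = 0.176), which encode transporters of the secretory pathway, but with a correction for GC content these were 0.01 and -0.05. Of the 14 ZIP genes, which import zinc into the cytosol, 11 were tested, 3 were higher and 2 lower at adjusted p of at most 0.05, and 6 did not pass, beside 21.0% higher and 19.8% lower over all genes tested, so the count is not set apart from the background. SLC39A10 (ZIP10), a plasma membrane importer, was the one called at a fold of 2, with 63.0, 66.4 and 62.2 CPM in shCtrl and 152, 162 and 198 CPM in shAC007128.1. It rose by 1.42 on the log2 scale (SE 0.11, edgeR adjusted p = 0.00011), from 63.9 ± 2.20 to 171 ± 24.3 CPM (SD, n = 3).

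The other ZIP genes that passed went in both directions. SLC39A8 (ZIP8), which carries zinc and manganese, rose by 0.67 on the log2 scale (edgeR adjusted p = 0.00668) and SLC39A13 by 0.31 (adjusted p = 0.0449). SLC39A11 had a log2 fold change of -0.95 (edgeR adjusted p = 0.000235) and SLC39A14 (ZIP14), an importer of zinc and iron, one of -0.53 (adjusted p = 0.000767). These 4 were named after their values were seen.

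**Figure D4:**
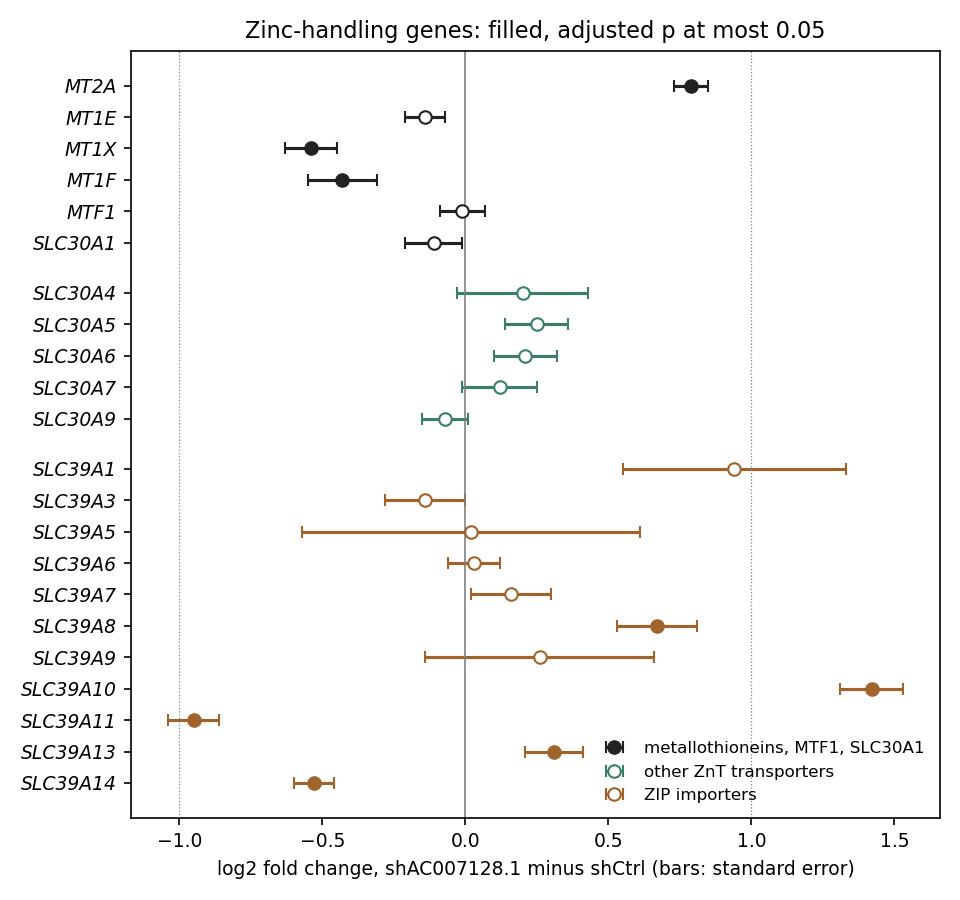
Log2 fold change, shAC007128.1 minus shCtrl, with SE bars, of the 6 tested members (black), the other tested ZnT genes (green) and the tested ZIP genes (brown), where filled points have an edgeR adjusted p of at most 0.05 and dotted lines mark a fold of 2. MT2A at 0.79 stood apart from the other members, no ZnT gene was filled, and SLC39A10 at 1.42 was the only filled point beyond the dotted lines.

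Metallothioneins also bind copper, and 13 genes of copper handling were examined in the same way. All 13 were tested, 5 were higher and 1 lower at adjusted p of at most 0.05, and 7 did not pass, with a median log2 fold change of 0.03. Over all genes tested, 21.0% were higher and 19.8% lower, from which this count is not set apart. SOD1, the cytosolic copper and zinc superoxide dismutase, was the one called at a fold of 2 and rose from 116 ± 3.48 to 261 ± 15.9 CPM (SD, n = 3, log2 fold change 1.17, SE 0.07, edgeR adjusted p = 4.9e-05). SOD1 and MT2A both stood above the controls in every shAC007128.1 sample, as did 27.0% of the genes tested.

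Of the 29 genes annotated within 250 kb of the cluster, the members left out, 24 were in the table and 8 were tested, with 2 higher, 3 lower and 3 not past the adjusted p. Among all genes tested 21.0% were higher and 19.8% lower, and MT1B, which entered the test only through shCtrl, was 1 of the 3 that were lower. Besides MT1B, HERPUD1, a gene of the endoplasmic reticulum stress response, was called at a fold of 2. HERPUD1 had 188, 293 and 265 CPM in shCtrl and 41.2, 50.5 and 44.8 CPM in shAC007128.1, a log2 fold change of -2.45 (SE 0.18, edgeR adjusted p = 8.27e-05).

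The genes whose pattern over the 6 samples was most like that of MT2A, by the root mean square difference of centred log2 CPM, were UBXN2A (0.0188), CBX3 (0.0248), ITSN1 (0.0260), GMPS (0.0348) and NEK4 (0.0351). For comparison of size, UBXN2A went from 28.2 ± 0.881 to 48.8 ± 3.47 CPM (SD, n = 3), 173% of control beside the 172% of MT2A. The members, the other metallothioneins and SLC30A1 among them, were left out of this ranking, so it cannot show whether they are like MT2A. None of the 5 was another zinc transporter of the lists above.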

How the data were processed

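RNA-seq of 3 shCtrl and 3 shAC007128.1 samples of KYSE150 was analysed from the deposited table of estimated counts per gene, which the authors supplied as whole numbers for 67140 identifiers. The study's methods describe alignment to hg38 with TopHat and quantification as FPKM with Cufflinks and Cuffdiff, and the submitters' processing notes name CASAVA 1.8, TopHat2 2.0.6, GRCh38 and mm10. The program, annotation and strand setting behind the counts, the handling of reads with several matches and the read length are not given in the sources used here. Group came from the sample descriptions, because the treatment text names the same hairpin for every sample.

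Counts were filtered with filterByExpr (19254 genes), scaled by TMM (factors 0.967 to 1.042) and tested with edgeR 4.0.16 (quasi-likelihood, R 4.3.3). Genes were called at adjusted p of at most 0.05 and a fold of at least 2, the study's thresholds, and also without the fold limit. The step was tested on simulated data, where edgeR called 84 of 100 set changes beyond a fold of 2. It passed 16 of 100 smaller ones at adjusted p of at most 0.05, and 5 of 18367 unchanged genes. A gene that did not pass can therefore still have changed by less than a fold of 2, and a gene not called by more than that. In the data 21.0% of the genes tested passed higher and 19.8% lower, a far larger share than was set to change in the simulation. The adjusted p depends on that share, so these rates do not carry over to the data. Gene models came from GENCODE release 44 and promoter windows from RefSeq GRCh38.p14. Coding identity was computed by pairwise alignment with Biopython 1.88. The floor was fixed at 3 counts per library and covers counting error only. At depths of 55764405 to 78610457 counts it came to 0.0373 to 0.0546 CPM.

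The members and the gene lists were chosen with earlier results of these data known. Named genes were the 10 members and the targeted gene. From each list, the genes called were named (up to the 4 with the smallest p), or else the 2 with the largest change. Also named were the 5 tested genes, members left out, most like the most abundant metallothionein. Alternatives covered other tools (DESeq2 1.42.0, limma 3.58.1), scaling, filters, gene length and GC content corrections, a replicate block and leaving out each sample. Same-numbered samples of the groups correlated at 0.045, -0.050 and -0.055 in their deviations from the group means, so the numbers were not used as pairs.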

Additional observations from a re-analysis of the deposited data

How the results depend on the processing

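Over 20 alternatives MT2A stayed past the adjusted p (log2 fold change 0.71 with library size only to 0.92 with gene length correction), as did MT1X (-0.61 to -0.46). No member was called at a fold of 2 in any of them; dropping the fold limit gave 1 member higher and 2 lower (all genes 4041 and 3820). With a replicate block, 1 member passed in the lower direction, likewise with the block and gene length correction, since MT1F missed the adjusted p (0.0707 and 0.0833), and leaving out single samples gave 1 to 2. MT1B missed it under the 3 block fits (0.0507 to 0.0569). The block changed no other call among the 13 genes refitted under it, which leave out the 5 genes most like MT2A and SLC39A8, SLC39A11, SLC39A13 and SLC39A14. MT1B had a value in 17 of the 20 alternatives. MTF1 went as low as -0.14 with gene length correction, ranged from -0.08 to 0.01 with single samples left out and turned to 0.01 without shAC007128.1 replicate 1 or 2. SLC30A6 turned to -0.05 with GC content correction, with or without the replicate block. The cause was not tested. The share of MT2A was 81.9% in shCtrl and 90.2% in shAC007128.1 from counts as they are, and 87.1% and 93.4% per kb of canonical transcript, the last a choice made after seeing the data, as was counting members without a fold limit under every alternative. The summed level was 156% of control in the main analysis and ran from 149% (library size only) to 161% (without shAC007128.1 replicate 2). At this depth, genes at 0 counts allow no comparison, and read assignment between paralogs was not tested.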
